A study of Mus musculus with 96 samples.

Results

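The liver of adult male mice born to mothers on a shifted light schedule was compared between a low-fat and a high-fat diet at 4 times of day. The question is whether the diet difference itself changes with the time of day. Such a change means another swing, peak time or shape of a gene's daily profile under the high-fat diet. A change of mean level alone gives no signal in this comparison. It rests on 24 of the 96 libraries of the series, taken by their labels: 12 libraries of low-fat offspring and 12 of high-fat offspring, with 3 at each of ZT0, ZT6, ZT12 and ZT18 (zeitgeber time, in hours, where ZT0 is lights on by convention).

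The mothers were C57BL/6J. During pregnancy alone the light cycle of the shifted mothers was moved forward by 8 h every 5 days, which the labels call circadian disruption, while control mothers stayed on 12 h light and 12 h dark. From 4 weeks of age their sons had free access to low-fat or high-fat food for 12 weeks. The 24 libraries of the sons of control mothers, on the same diets and at the same times, serve here as the reference. The sources used here do not state whether the 3 libraries of a group came from separate animals or which sons shared a mother, so the p-values measure the spread between libraries, which may be technical.

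The liver keeps time with a clock in each hepatocyte, in which the CLOCK and BMAL1 proteins (BMAL1 is encoded by Arntl) switch on the Per, Cry and Nr1d genes, whose products in turn hold their own activators down. Meals add a further layer: genes of cholesterol and fatty acid synthesis respond to SREBP transcription factors in the fed state, and genes of fat oxidation respond to the fatty acid receptor PPAR-alpha in fasting. High-fat feeding of mice is known to flatten the daily rhythm of eating and to alter rhythms of liver genes, which is why time of day and diet are studied together.

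The libraries of low-fat offspring at ZT6 stood apart from the other low-fat libraries, and this bears on every result below. With each gene centred on its mean over the 24 libraries, their median correlation to the other low-fat libraries was -0.32 to -0.20. To the high-fat libraries it was 0.16 to 0.40 at ZT6 and -0.06 to 0.06 at the other times. To each other it was 0.43 to 0.57. Their centred values were higher for longer transcripts (Spearman rho across genes 0.30 to 0.38), where the 9 other low-fat libraries had a median rho of -0.29 and a range of -0.57 to 0.41. By this rho, low-fat replicate 3 at ZT0 (0.41) lay with the high-fat libraries, and high-fat replicate 2 at ZT18 (-0.36) lay with the low-fat ones. The median correlation of low-fat replicate 3 at ZT0 to the high-fat libraries was -0.0007 at ZT6 and -0.04 at the other times. No label names a preparation or sequencing batch, so a batch shared by the low-fat libraries of ZT6 and an effect of that time cannot be told apart. Relative depth, read from the step size of low values against 1 library, was 0.72 to 1.34, and no 2 libraries were identical. The spread within groups also differed between the diets: the median SD on the log2 scale was 0.25 in the low-fat and 0.12 in the high-fat arm. The 9 hepatocyte markers in the table summed to 47885 to 136345 FPKM and 7 skeletal muscle markers to at most 1.84 FPKM in any library. The hepatocyte sums were 53333 to 69752 in low-fat libraries of ZT6 and 67550 to 136345 in the other low-fat libraries. In high-fat libraries they were 47885 to 81443.

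**Figure D1:**
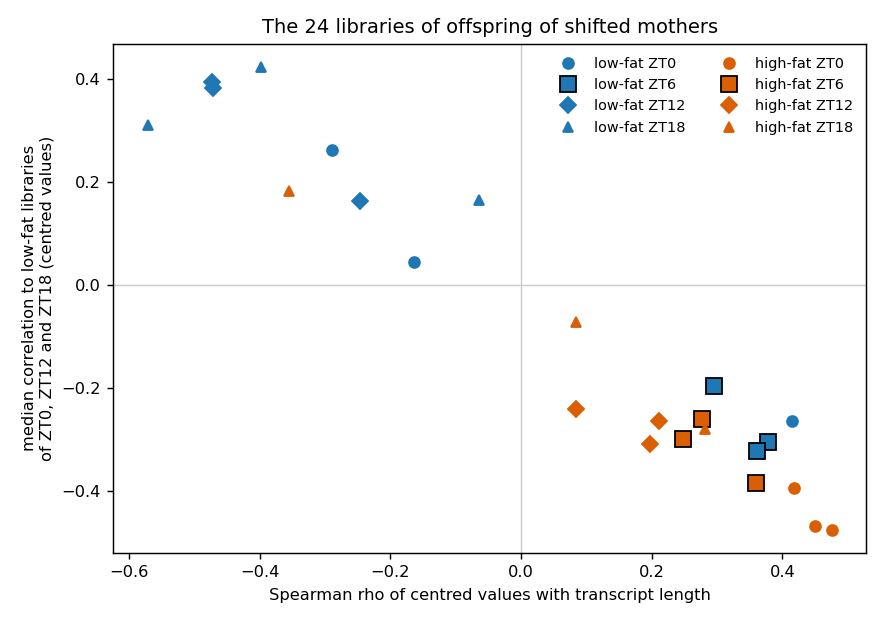
Each point is 1 of the 24 libraries, with the Spearman rho of its centred values with transcript length on the horizontal axis and its median correlation to the low-fat libraries of ZT0, ZT12 and ZT18 on the vertical axis. On these axes the 3 low-fat libraries of ZT6 (blue squares, correlation -0.32 to -0.20) lie among the high-fat libraries (orange), as does low-fat replicate 3 of ZT0. The axes do not show the correlation to the high-fat libraries.

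The diet difference changed with the time of day in 17 of 10849 genes tested, or 0.157% (limma F test with 3 degrees of freedom on log2(FPKM + 1), Benjamini-Hochberg adjusted p under 0.05). At unadjusted p under 0.05 there were 1652 genes, or 15.2%. The 17 called genes took 2 mirror-image shapes. In 7 genes, high-fat offspring were above low-fat offspring at ZT0 and ZT12 and below them at ZT6, and in the other 10 genes the signs were the opposite at all 3 times. The bicarbonate transporter gene Slc4a4 led the first set and the serine protease inhibitor gene Serpina1e the second, both with an adjusted p of 0.00589.

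**Figure D2:**
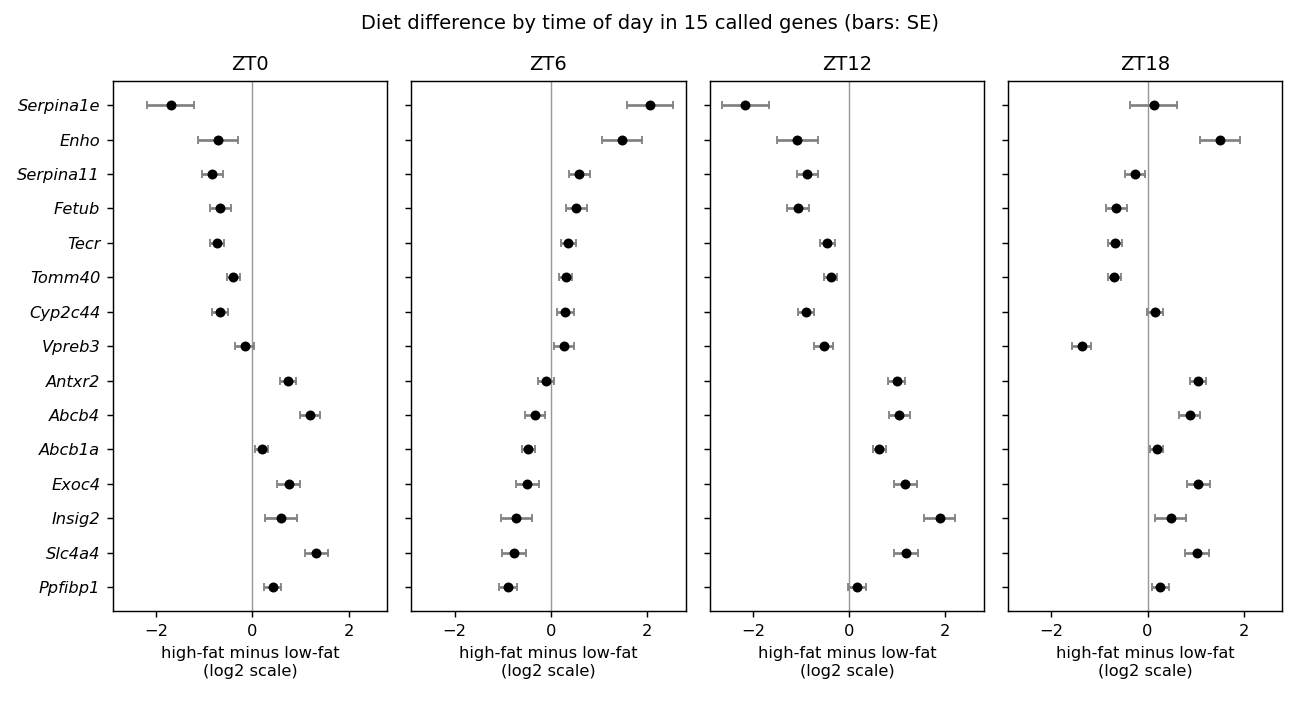
Each row is 1 of 15 called genes and each panel 1 time of day. Points are the high-fat minus low-fat difference on the log2 scale, from 3 libraries a group. Bars are its SE from 1 spread per gene over all 48 offspring libraries, so they are equal at the 4 times. The 7 genes at the bottom lie right of 0 at ZT0 and ZT12 and left of it at ZT6, and the 8 genes at the top do the reverse.

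In most called genes the low-fat profile had a single excursion at ZT6, while the high-fat profile was flatter. The diet difference departed most from its mean over the 4 times at ZT6 in 13 of the 17 genes, at ZT12 in 3 (Cyp2c44, Enho and Insig2) and at ZT18 in 1 (Vpreb3). Over all genes tested, ZT6 was the time of the largest departure in 44.5%, and among those of unadjusted p under 0.05 in 72.6%. The 3 low-fat libraries of ZT6 were all above the other low-fat libraries in 6 called genes, all below them in 7, and overlapped them in 4. All 17 passed the test for time of day within the low-fat arm, and 4 passed it within the high-fat arm. Both tests used 1 spread for all 4 offspring arms, and over all genes the order of the diets depended on that choice (below). The cosine amplitude was lower in high-fat offspring in 16 of the 17, Enho being the exception. These counts describe genes that the same contrast chose, and support nothing further.

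The 2 shapes also differed in transcript length. The 7 genes that were lower in high-fat offspring at ZT6 had longest transcripts of 2697 to 7931 nt, and the 9 genes of the opposite shape with a reference transcript had 711 to 2766 nt, against a median of 3169 nt over all genes tested. Across 10453 genes, the departure of the diet difference at ZT6 had a Spearman rho of -0.48 with transcript length and 0.36 with GC content, and at ZT0 a rho of -0.56 with GC content. These rho values are over genes of the same 24 libraries, and genes are not independent replicates. With the trend of each library with length and GC content removed, 2 genes were called, Slc4a4 and Serpina1e, both with an adjusted p of 0.0206 in limma. The other 14 testable called genes then had unadjusted p under 0.05, where 10.7% of all genes did. The same contrast in the same libraries had chosen these 14 genes, so their count supports nothing further. Tested on ZT0, ZT12 and ZT18 alone, no gene was called in limma, and 423 genes, or 3.9%, had an unadjusted p under 0.05, with a smallest adjusted p of 0.767.

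The number of called genes depended on single libraries. Leaving out 1 library at a time gave 0 to 637 called genes, and 5 of the 24 fits stayed within 1.5 times of the 17. The count was 637 without low-fat replicate 3 of ZT0, 301 without low-fat replicate 2 of ZT18, 115 without low-fat replicate 2 of ZT0, 59 without high-fat replicate 2 of ZT18 and 31 without low-fat replicate 3 of ZT18, and each of these 5 fits kept all 17 genes. It was 0 without high-fat replicate 1 of ZT6 and 1 without low-fat replicate 1 of ZT6. The other 12 fits outside that range called 2 to 11 genes. Slc4a4 stayed called in 22 and Serpina1e in 23 of the 24 fits.

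Among membrane transporters, Slc4a4 encodes the sodium bicarbonate cotransporter NBCe1 (chr5:88886818-89239653, mm10, plus strand). In low-fat offspring its scaled FPKM was 2.61, 2.93 and 5.19 at ZT0, 15.3, 9.64 and 13.1 at ZT6, 2.32, 2.24 and 2.77 at ZT12, and 3.10, 2.22 and 1.404 at ZT18. In high-fat offspring it was 10.4, 10.1 and 10.1 at ZT0, 5.89, 7.31 and 7.64 at ZT6, 7.93, 6.798 and 5.89 at ZT12, and 4.503, 4.42 and 8.10 at ZT18. The low-fat libraries of ZT6 and the high-fat libraries of ZT0 held the highest values, and the diets did not overlap at any of the 4 times. The difference on the log2 scale was 1.33, -0.77, 1.19 and 1.03, in order of time (SE 0.25 at each time), and the cosine amplitude was 1.06 in low-fat and 0.30 in high-fat offspring (adjusted p = 0.0819 for the amplitude component in limma).

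Abcb4 (chr5:8893717-8959231, mm10, plus strand) encodes the transporter that moves phosphatidylcholine into bile. Low-fat libraries held 28.1, 25.1 and 31.7 at ZT0, 90.8, 49.1 and 62.6 at ZT6, 24.9, 23.9 and 32.9 at ZT12, and 28.2, 35.3 and 29.4 at ZT18. High-fat libraries held 61.5, 71.1 and 65.2 at ZT0, 42.8, 55.8 and 58.0 at ZT6, 56.6, 59.3 and 54.5 at ZT12, and 49.9, 49.8 and 76.3 at ZT18. High-fat offspring were above low-fat offspring, without overlap, at ZT0, ZT12 and ZT18, and the diets overlapped at ZT6 (adjusted p = 0.0408 in limma). Abcb1a, on the same chromosome, encodes a multidrug efflux pump and had an adjusted p of 0.0371 at low levels: at most 1.51 FPKM in any library. Low-fat libraries of ZT6 held 0.893 to 1.48 FPKM of Abcb1a and the other low-fat libraries 0.101 to 0.520.

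Among secreted proteins, Serpina1e encodes a mouse alpha-1 antitrypsin (chr12:103946931-103958975, mm10, minus strand). It belongs to a cluster of near-identical paralogs, so its FPKM is uncertain where the counting split shared reads. Low-fat libraries held 8862, 6945 and 9411 FPKM at ZT0, 1232, 661 and 517 at ZT6, 6698, 6857 and 5501 at ZT12, and 2425, 2108 and 5198 at ZT18. High-fat libraries held 2955, 1959 and 2920 at ZT0, 5104, 1962 and 3072 at ZT6, 1063, 1005 and 2651 at ZT12, and 7901, 2322 and 1876 at ZT18. The diets did not overlap at ZT0, ZT6 and ZT12 and overlapped at ZT18. The difference on the log2 scale was -1.70, 2.06, -2.16 and 0.12, in order of time (SE 0.49 at each time).

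Another 3 called genes encode secreted proteins. Serpina11, a further serpin of the same cluster, was at 19.9 to 29.6 FPKM in low-fat libraries of ZT6 and at 36.3 to 71.4 in the other low-fat libraries (adjusted p = 0.0438 in limma), with high-fat libraries at 26.1 to 48.3. Fetub, which encodes fetuin-B, was at 119 to 161 in low-fat libraries of ZT6 and 179 to 414 in the others (adjusted p = 0.0498), with high-fat libraries at 133 to 255. For both, the low-fat libraries of ZT6 lay below every other low-fat library. Enho, the gene of the peptide adropin, was at 14.2, 23.03 and 19.3 at ZT0 and 8.85, 4.22 and 5.71 at ZT6 in low-fat offspring, and at 13.3, 7.41 and 12.8 and then 28.7, 12.6 and 17.7 in high-fat offspring. The diet order of Enho turned from low-fat above at ZT0 to high-fat above at ZT6, with no overlap at either time (adjusted p = 0.0385).

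**Figure D3:**
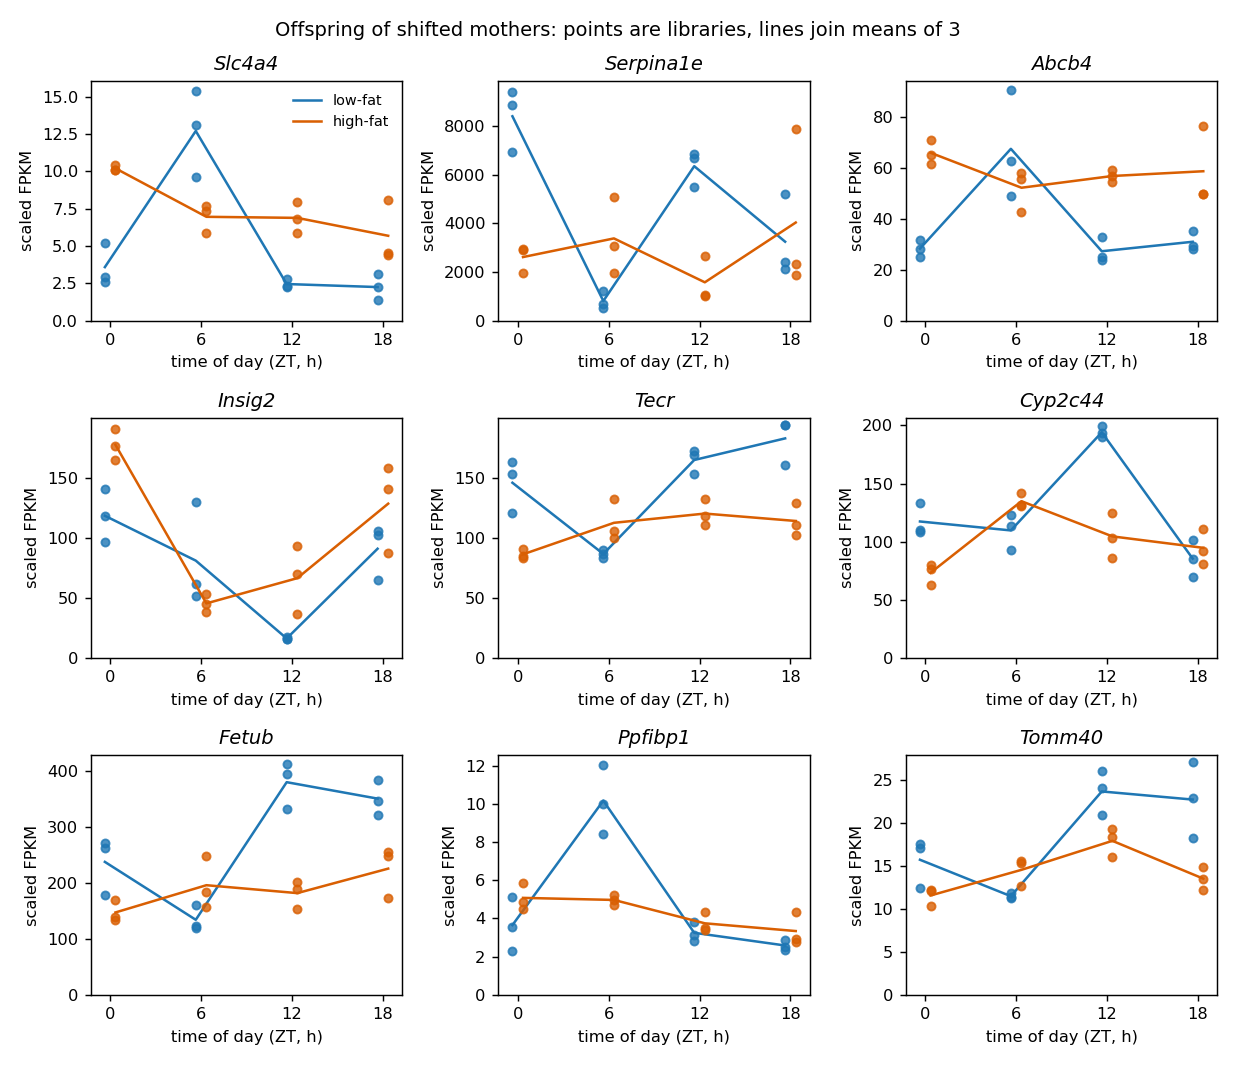
Scaled FPKM of 9 called genes against time of day, with 1 point per library and lines through the means of 3 libraries; blue is low-fat and orange high-fat. Slc4a4, Abcb4 and Ppfibp1 peak at ZT6 in low-fat libraries, and Serpina1e, Tecr, Fetub and Tomm40 have their low there. On the log2 scale, which is not drawn here, Insig2 and Cyp2c44 differ most between the diets at ZT12.

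The promoters of the leading gene of each shape are shown because clock output reaches genes through short DNA elements near their start sites. A RefSeq promoter table (GRCm38.p6, the build of mm10) held 13 of the 17 called genes. Shown 5′ to 3′ are the bases just upstream of the second listed start of Slc4a4 (chr5:89027716-89027965, plus strand) and of the start of Serpina1e (chr12:103956898-103957147, minus strand), with motif matches in capitals.
Slc4a4: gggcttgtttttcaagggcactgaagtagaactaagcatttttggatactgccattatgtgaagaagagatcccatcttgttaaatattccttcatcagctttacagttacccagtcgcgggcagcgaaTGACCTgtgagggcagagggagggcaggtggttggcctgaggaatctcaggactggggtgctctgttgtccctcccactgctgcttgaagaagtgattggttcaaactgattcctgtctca
Serpina1e: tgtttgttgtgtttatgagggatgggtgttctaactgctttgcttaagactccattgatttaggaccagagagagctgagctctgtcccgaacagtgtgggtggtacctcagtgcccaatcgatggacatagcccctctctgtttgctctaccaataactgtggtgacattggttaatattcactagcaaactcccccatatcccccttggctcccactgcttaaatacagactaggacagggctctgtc
The motifs searched on both strands were the E-box CACGTG, the D-box TTATGTAA and the ROR core element AGGTCA. The capitals in Slc4a4 are a match to the ROR core element on the opposite strand. Among 32851 mouse promoter windows of the same length, 14.02% held the ROR core element, 6.02% the E-box and 0.82% the D-box. A match describes the letters only, and no match was found in the window of Serpina1e or in those of the first start of Slc4a4, Vpreb3 and Tecr.

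Of the genes of lipid metabolism, Insig2 encodes an endoplasmic reticulum protein that holds back the activation of SREBP (chr1:121304353-121332589, mm10, minus strand). Low-fat libraries held 118, 96.2 and 141 FPKM at ZT0, 129.6, 61.2 and 51.7 at ZT6, 15.2, 15.7 and 16.99 at ZT12, and 64.7, 102 and 106 at ZT18. High-fat libraries held 191, 165 and 176 at ZT0, 38.1, 52.7 and 44.8 at ZT6, 69.5, 93.0 and 36.3 at ZT12, and 87.0, 140.3 and 158 at ZT18. The lowest low-fat libraries were those of ZT12, and in high-fat offspring the lowest values were spread over ZT6 and 1 library of ZT12. The high-fat libraries were above the low-fat ones without overlap at ZT0 and ZT12, and the cosine peak was at 23.7 h in low-fat and 21.1 h in high-fat offspring (interaction adjusted p = 0.0403). Insig2 passed the test for time of day in both diets (adjusted p = 0.000376 in high-fat offspring, in limma).

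Tecr encodes an enzyme of very long chain fatty acid elongation. It was at 153, 163 and 121 FPKM at ZT0, 82.7, 86.7 and 90.0 at ZT6, 172, 169 and 153 at ZT12, and 194, 161 and 194 at ZT18 in low-fat offspring, and between 82.9 and 132 in all 12 high-fat libraries. The low-fat libraries of ZT6 lay at the lower end of the high-fat range and the 9 other low-fat libraries lay at 121 or above (adjusted p = 0.0371 in limma). Cyp2c44, a cytochrome P450 of the arachidonic acid-metabolising Cyp2c family, differed most at ZT12, where low-fat libraries held 193, 189.8 and 199 FPKM and high-fat libraries 103, 85.7 and 124. At ZT6 its order was the opposite, with 92.7, 113 and 123 in low-fat and 142, 131 and 132 in high-fat libraries, and neither time had an overlap (adjusted p = 0.0331).

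Ppfibp1, which encodes a liprin of cell adhesion sites, was at 8.44 to 12.1 FPKM in low-fat libraries of ZT6, 2.29 to 5.14 in the other low-fat libraries and 2.75 to 5.87 in high-fat libraries (adjusted p = 0.0371 in limma). The low-fat libraries of ZT6 stood above every other library of either diet.

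Another 3 called genes fall outside the naming rule and are named after their values were seen. Tomm40, a channel of the mitochondrial outer membrane (adjusted p = 0.0438 in limma), was lowest at ZT6 among low-fat libraries, at 11.3 to 11.9 FPKM, with the other low-fat libraries at 12.5 to 27.1. Exoc4, a subunit of the exocyst (0.0438), and Antxr2, a receptor for matrix proteins (0.0450), were highest there, at 4.09 to 4.91 and 5.26 to 6.13 FPKM. The other low-fat libraries held 0.212 to 2.83 of Exoc4 and 2.14 to 4.10 of Antxr2.

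In the 2 parts of the interaction that a 24 h cosine covers, 1 gene passed for a change of swing and none for a moved peak. The amplitude component is the high-fat minus low-fat difference of the 24 h cosine and sine terms along the direction of the averaged profile, and the peak-time component is the same difference at right angles to it. The remaining part of the interaction, ZT0 and ZT12 against ZT6 and ZT18, lies in neither component and was not tested alone. Among the called genes, Cyp2c44 had an unadjusted p of 0.689 for amplitude and 0.289 for peak time in limma. For Enho these were 0.647 and 0.698. The amplitude component called 1 of 10848 genes (0.00922%), Vpreb3, a gene known from the surrogate light chain of B cell precursors, with a component of -0.80, lower in high-fat offspring (SE 0.14, adjusted p = 0.0256 in limma). At unadjusted p under 0.05 the component was lower in high-fat offspring for 1712 genes (15.8%) and higher for 47 (0.433%). A larger spread in the low-fat arm (above) by itself moves this component toward lower values in high-fat offspring. Its share in this split was not tested. The count of 1 was 575 without low-fat replicate 2 of ZT18, 362 without low-fat replicate 2 of ZT0, 127 without high-fat replicate 2 of ZT18, and 0 or 1 in the other fits with 1 library left out.

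Vpreb3 was low throughout, at 2.19, 2.21 and 2.53 FPKM at ZT18 in low-fat offspring and 0.564, 0.0770 and 0.240 at ZT18 in high-fat offspring. At ZT12 it was at 0.749, 1.25 and 0.924 against 0.193, 0.580 and 0.330. It was at or under 0.433 in every library of either diet at ZT0 and ZT6, and the low-fat libraries of ZT12 and ZT18 were above every high-fat library. Lymphocyte markers, 9 genes of which 8 are in the table, summed to 2.37 to 6.15 FPKM in low-fat libraries of ZT6. Their sums were 1.70 to 3.34 FPKM in the other low-fat libraries and 1.51 to 3.68 FPKM in high-fat libraries. Of these markers, 6 of the 8 were under 1 FPKM in every library, and their part in the result for Vpreb3 was not tested.

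The peak-time component called no gene in limma (smallest adjusted p = 0.577), and 462 genes had an unadjusted p under 0.05. The peak was earlier in high-fat offspring for 334 of them (3.08% of the genes tested) and later for 128 (1.18%). Tomm40 had the smallest unadjusted p (9.13e-05), with cosine peaks at 15.9 h in low-fat and 11.4 h in high-fat offspring.

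Over all genes tested the cosine amplitude was lower in high-fat offspring for 8759 of 10849 genes (80.7%), with a median of 0.25 in low-fat and 0.14 in high-fat offspring on the log2 scale. Spread between libraries alone gives an amplitude above 0, and it was larger in the low-fat arm (above). With the part expected from each arm's own spread within groups subtracted from the squared amplitudes, 7215 genes (66.5%) were lower in high-fat offspring, and the medians were 0.20 and 0.11. In offspring of control mothers the high-fat arm had the larger spread, with a median SD of 0.31 against 0.19 in the low-fat arm. There 4951 genes (45.6%) had the lower amplitude under the high-fat diet before this subtraction and 6528 (60.2%) after it, with medians of 0.14 in low-fat and 0.09 in high-fat offspring. The shares of the 2 maternal groups were thus closer after the subtraction, and their difference was not tested.

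The number of genes with a time of day effect in each diet depended on how the spread was estimated. With 1 spread for all 4 offspring arms, 4251 genes (39.2%) passed in low-fat and 280 (2.58%) in high-fat offspring, 256 of them in both. With each arm fitted alone the counts were 2108 and 3071, and with libraries weighted by the spread of their arm they were 3099 and 4170, so the order of the diets turned. Without ZT6 the low-fat count was 1752.

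Of 23 clock genes tested, 0 were called in the interaction in limma, and 3 had an unadjusted p under 0.05 (Nr1d2, Clock and Npas2), or 13.0% against 15.2% of all genes. Without low-fat replicate 3 of ZT0, 2 clock genes were called. In 12 clock genes time of day passed the test in both diets. Arntl, the gene of BMAL1, was at 9.17, 6.97 and 10.9 FPKM at ZT0 and 0.307, 0.450 and 0.0979 at ZT12 in low-fat offspring, and at 8.82, 9.59 and 7.89 and then 0.886, 1.17 and 0.822 in high-fat offspring. Its amplitude was 1.67 in low-fat and 1.62 in high-fat offspring. Dbp, a transcription factor driven directly by the clock, ranged from 0.116 to 52.1 FPKM in low-fat and from 0.180 to 42.6 in high-fat libraries, with amplitudes of 2.79 and 2.93.

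The repressor gene Nr1d1 was highest at ZT6 in both diets, at 28.2, 23.95 and 27.4 FPKM in low-fat and 28.7, 33.5 and 23.5 in high-fat libraries (interaction adjusted p = 0.503 in limma). Its partner Nr1d2 had the smallest interaction p of the clock genes (adjusted p = 0.118), with 0.275, 1.92 and 2.33 at ZT0 in low-fat and 5.30, 5.31 and 3.95 in high-fat libraries. Nr1d2 did not overlap between the diets at that time. Per2, a repressor gene that also responds to feeding, was at 0.722, 3.60 and 3.16 at ZT6 in low-fat and 4.70, 3.99 and 4.55 in high-fat libraries, with no overlap. At ZT18 it was at 9.38, 15.6 and 5.22 in low-fat and 7.596, 5.75 and 3.82 in high-fat libraries, which overlap (adjusted p = 0.509).

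Peaks of these 12 genes lay earlier in high-fat offspring in 11, by a median of -1.05 h (range -1.65 to 0.28 h), Nfil3 being the exception. The cosine peak of Arntl was at 22.2 h (SE 0.32) in low-fat and 21.0 h (SE 0.32) in high-fat offspring, that of Nr1d1 at 6.93 h (SE 0.32) and 5.88 h (SE 0.32), and that of Dbp at 9.71 h (SE 0.28) and 8.80 h (SE 0.27). In 7 of the 12 the peak-time component had an unadjusted p under 0.05, against 4.26% of all genes tested, and the smallest adjusted p was 1. The 2 shares are not like for like, because the 12 were chosen for passing time of day. Their median amplitudes were 1.37 in low-fat and 1.39 in high-fat offspring, against 0.25 and 0.14 for all genes. The share among other genes that passed in both diets is not given here. Among the 244 other genes that passed time of day in both diets, 173 peaked earlier in high-fat offspring (70.9%), with a median of -0.90 h. The 12 genes share the libraries and a 6 h sampling step, and are not independent of each other.

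**Figure D4:**
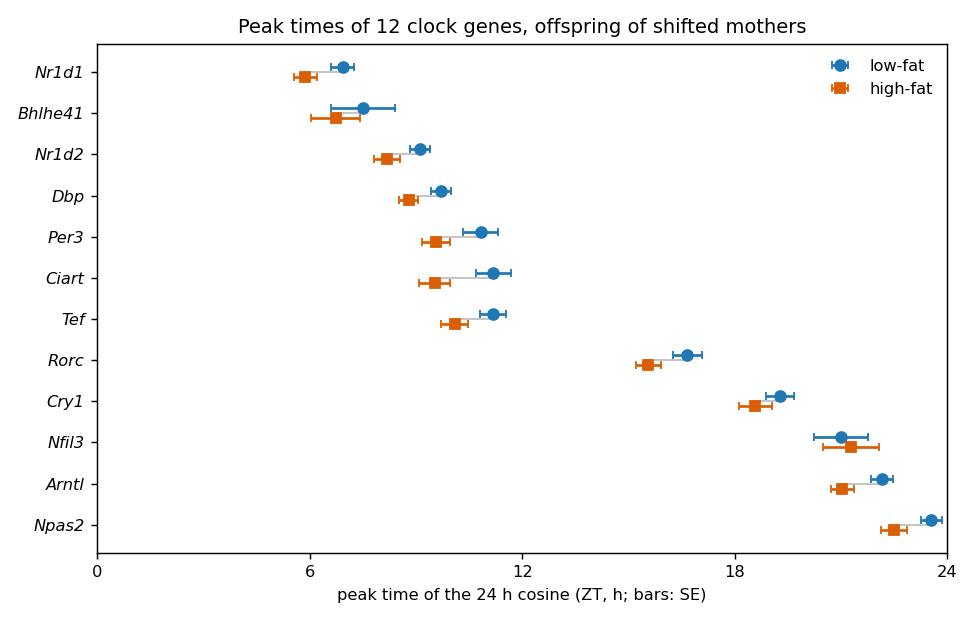
Cosine peak time in hours of the 12 clock genes that passed time of day in both diets, with low-fat as blue circles, high-fat as orange squares and SE as bars. The orange squares lie left of the blue circles in 11 of the 12 genes, Nfil3 being the exception.

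In offspring of control mothers the peaks of the same 12 genes lay earlier under the high-fat diet in 9, with a median of -0.37 h and a range of -3.51 to 0.80 h. Nr1d1, Nr1d2 and Cry1 peaked later there under the high-fat diet, by 0.80, 0.67 and 0.32 h. The difference in peak shifts between the maternal groups was not tested. The interaction of time, diet and maternal schedule, which covers whole profiles, called none of the 12 in limma. In that test 2 of the 12 had an unadjusted p under 0.05 (Nr1d1 0.0226 and Nr1d2 0.00758), beside 10.8% of all genes tested.

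Pathway lists were read by how many members had an unadjusted interaction p under 0.05, beside 15.2% of all genes tested. The list of cholesterol synthesis and uptake genes, targets of SREBP2, held 17 of 24 (70.8%), with 0 called. The median departure of the diet difference from its mean over the 4 times was -0.89 at ZT0 and 0.98 at ZT6 on the log2 scale, against 0.00 and -0.02 for all genes. After removal of length and GC trends 19 of 24 (79.2%) had an unadjusted p under 0.05, against 10.7% of all genes. Without ZT6 the count was 5 of 24 (20.8%), against 3.9% of all genes. In control offspring the same test gave 4 of 24 (16.7%), against 18% of all genes.

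Lanosterol synthase, Lss, was the member of smallest p (adjusted p = 0.0644 in limma). Low-fat libraries held 14.2, 13.7 and 14.5 FPKM at ZT0 and 3.36, 4.87 and 4.66 at ZT6, and high-fat libraries 5.49, 4.11 and 5.27 at ZT0 and 6.93, 7.59 and 18.1 at ZT6. The order of the diets turned between the 2 times with no overlap at either. Lss did not pass the threshold.

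Cytosolic ribosomal protein genes held 23 of 28 (82.1%) at unadjusted p under 0.05, with 0 called among the listed members. Their diet difference had medians of -0.76, 0.06, -0.74 and -0.95 on the log2 scale, in order of time, so the diets were level at ZT6 only. Rps6 was at 167, 161 and 179 FPKM at ZT6 in low-fat libraries against 190.4 to 509.5 at the other times, and at 139 to 215 in high-fat libraries (adjusted p = 0.0789 in limma). Without ZT6, 0 of 28 had an unadjusted p under 0.05, against 3.9% of all genes. With length and GC trends removed 19 of 28 (67.9%) did, against 10.7% of all genes. These transcripts are short, and the part of transcript length in their profile beyond that setting was not tested. Oxidative phosphorylation genes held 12 of 26 (46.2%), with a median departure of 0.33 at ZT6 and -0.31 at ZT18. With the trends removed they held 7 of 26 (26.9%), against 10.7% of all genes.

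**Figure D5:**
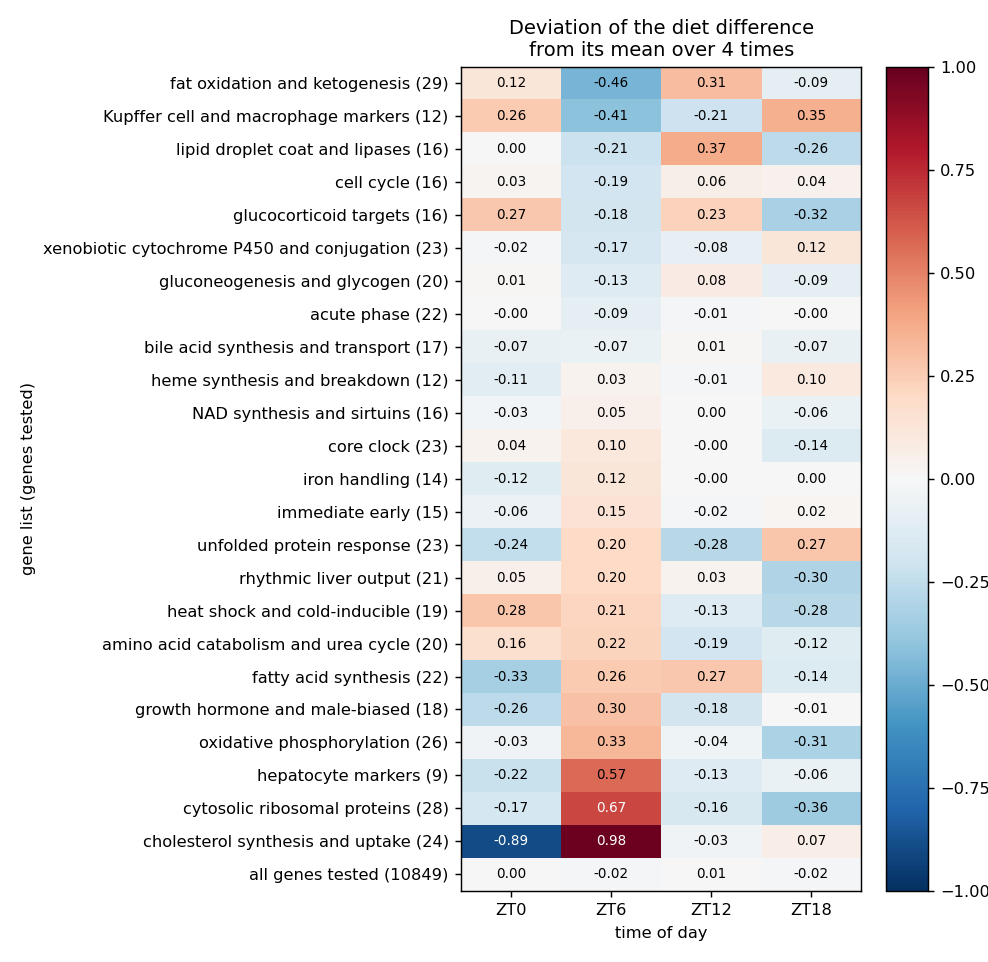
Median over the genes of each list of the departure of the diet difference from its mean over the 4 times (log2 scale, colour and number), with the genes tested in brackets. Cholesterol synthesis runs from -0.89 at ZT0 to 0.98 at ZT6, fat oxidation is lowest at ZT6 (-0.46), and all genes tested run from -0.02 to 0.01.

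Fat oxidation and ketogenesis genes, many of them PPAR-alpha targets, held 7 of 29 (24.1%) at unadjusted p under 0.05 and 0 called, with a median departure of -0.46 at ZT6 and 0.31 at ZT12. Cpt1a, which admits fatty acids into mitochondria, was at 106, 105 and 109 FPKM at ZT6 and 24.6 to 75.3 at the other times in low-fat libraries (adjusted p = 0.269 in limma). In high-fat libraries Cpt1a was at 93.0, 95.4 and 102 at ZT6 and at 127, 119.6 and 89.1 at ZT12. Cyp4a14, a PPAR-alpha target of fatty acid omega-hydroxylation, was at 131, 76.8 and 419.8 at ZT6 and 2.50 to 48.1 at the other times in low-fat libraries, and at 6.34 to 223 in high-fat libraries (adjusted p = 0.276). In both genes the low-fat libraries of ZT6 were above every other low-fat library.

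Fatty acid synthesis genes held 8 of 22 (36.4%), 1 of them called (Insig2). In control offspring they held 9 of 22 (40.9%) and lipid droplet genes 6 of 16 (37.5%), against 18% of all genes. Fasn, the fatty acid synthase, was at 196, 149.5 and 109 FPKM at ZT0 in low-fat and 41.0, 36.7 and 42.3 in high-fat libraries, and at ZT6 at 45.3, 69.3 and 34.0 against 69.7, 71.7 and 42.3 (adjusted p = 0.225 in limma). Gpam, which starts triglyceride assembly, was at 10.99, 10.2 and 10.2 at ZT12 in low-fat and 42.7, 56.4 and 31.7 in high-fat libraries (adjusted p = 0.190). Lipid droplet genes held 8 of 16 (50%), and Fitm2, a protein of droplet formation, was at 4.24, 4.20 and 4.55 at ZT12 in low-fat and 19.1, 18.5 and 16.7 in high-fat libraries (adjusted p = 0.0749). Fasn at ZT0 and Gpam and Fitm2 at ZT12 did not overlap between the diets, in opposite directions.

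Lists nearer to the background were those of gluconeogenesis (2 of 20), the unfolded protein response (1 of 23), acute phase proteins (1 of 22), heme (1 of 12), amino acid catabolism (2 of 20) and bile acids (3 of 17, with Abcb4 called). Growth hormone responsive and male-biased genes held 8 of 18 (44.4%). Of the cell type markers, those of hepatocytes held 5 of 9, with a median departure of 0.57 at ZT6, and those of Kupffer cells and macrophages 3 of 12, with -0.41 at ZT6. Endothelial markers held 3 of 9, with a median departure of -0.39 at ZT12, and stellate cell and matrix markers 3 of 9, with -0.28 at ZT6. With length and GC trends removed the endothelial count was 5 of 9 (55.6%), against 10.7% of all genes. Without ZT6 it was 4 of 9 (44.4%), against 3.9% of all genes. In control offspring the endothelial markers held 4 of 9 (44.4%) and the macrophage markers 10 of 12, against 18% of all genes. The summed level of the 14 macrophage markers was 135 to 264 FPKM in low-fat libraries of ZT6, 82.4 to 212 in the other low-fat libraries and 75.4 to 187 in high-fat libraries. None of the 14 was at 0 in all libraries. In bulk tissue fewer cells of a type and less RNA per cell cannot be told apart, and the part of cell makeup in the interaction was not tested.

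In offspring of control mothers the time by diet interaction called 3 of 10849 genes (0.0277%), Srm, Hspa8 and Cables1, and 1958 genes (18%) had an unadjusted p under 0.05. This count too rested on single libraries: it was 714 without high-fat replicate 3 of ZT0, 678 without high-fat replicate 1 of ZT12, and 0 to 34 in the other fits with 1 library left out. None of the 17 genes was called there, and 3 of them had an unadjusted p under 0.05. Slc4a4 had log2 diet differences of -0.28, -0.69, -0.29 and -0.0047 in control offspring, in order of time, and Serpina1e 0.22, 1.21, 0.51 and 1.53. Control low-fat libraries held 7.89 ± 2.60 FPKM of Slc4a4 at ZT6 (SD, n = 3) and 2.51 ± 0.34 at ZT12, beside 12.7 ± 2.87 at ZT6 in low-fat offspring of shifted mothers. Control high-fat libraries held 4.38 ± 0.79 at ZT6 and 1.98 ± 0.93 at ZT12.

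Whether the interaction differs between offspring of shifted and of control mothers was tested directly, as time by diet by maternal schedule. No gene passed in limma (smallest adjusted p = 0.412), while 1176 genes (10.8%) had an unadjusted p under 0.05. The 17 called genes were chosen by differences that enter this test, and 13 of them had an unadjusted p under 0.05. The smallest p belonged to Rab4a, a regulator of endosome recycling, whose diet difference was -0.78 at ZT0 and 0.09 at ZT6 in offspring of shifted mothers and 0.63 and 0.06 in control offspring. Smpd3 and Mmp15 came next, with the same adjusted p. An interaction particular to offspring of shifted mothers was not shown.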

How the data were processed

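Poly(A) RNA of liver was sequenced with a stranded kit, per the labels' protocols. The authors deposited FPKM values (fragment counts divided by transcript length and library size), 1 table for each arm, and named TopHat2 2.1.1, Cufflinks 2.2.1 and mm10, per the submitters' processing notes. No source used here gives the annotation or any filter. Read counts were not analysed here, so absolute depth is unknown and low values carry no counting interval.

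Here median-of-ratios factors (0.714 to 1.39) were applied to the 48 offspring libraries, which were then taken as log2(FPKM + 1), so fold changes of low genes are understated. Of 24066 genes, left after 817 table entries with shared symbols were removed, 10849 had at least 1 FPKM in at least 3 libraries. limma 3.58.1 (R 4.3.3) was fitted with 1 mean per arm and time, an intensity trend and Benjamini-Hochberg adjustment. The code was tested on simulated data in which all arms had the same spread. Amplitudes and peaks are from 24 h cosine terms. Length and GC content were those of the longest GENCODE transcript of a symbol (96.3% of genes). Named genes are the 12 called genes of smallest p, the 10 of largest range with at least 5 FPKM in some group, called list members and fixed clock genes. Members and lists were chosen with earlier results of these data known. Removal of length and GC trends, testing without ZT6, weighting by arm and subtracting the spread from amplitudes were chosen after seeing the data. Mothers and fetuses were not used, and the values of some genes are not reported here.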

Additional observations from a re-analysis of the deposited data

How the results depend on the processing

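The 17 interaction calls became 4 with a pseudocount of 0.1, 44 with no filter on low values (all 17 among them), 8 with upper quartile scaling, 0 with cosine and sine terms, 27 with only the libraries of both arms (8 of the 17 among them), 42 without the libraries of low correlation (10 of the 17), 2 with length and GC trends removed, 0 without ZT6 and 29 with libraries weighted by arm (14 of the 17). With values as deposited 23 genes were called, 10 of them among the 17. With 1 library left out, the counts ran from 0 to 637 for the interaction, 0 to 575 for amplitude, 0 to 1 for peak time, 0 to 714 for the interaction in control offspring, 0 to 0 for its interaction with the maternal schedule, 3415 to 4636 for time of day in low-fat and 185 to 285 in high-fat offspring, and 0 to 2 for called clock genes.

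The amplitude component called 0 genes with a pseudocount of 0.1, 4 with no filter, 3 with values as deposited, 24 with only the libraries of both arms, 16 without libraries of low correlation and 0 with trends removed. In control offspring the 3 calls became 1 with a pseudocount of 0.1, 1 with values as deposited, 0 with upper quartile scaling, 1 with cosine and sine terms, 0 with only those arms, 90 without libraries of low correlation, 12 with trends removed, 0 without ZT6 and 0 with weights. The interaction with the maternal schedule called 1 gene with no filter. Time of day called 2108 genes in low-fat offspring with the arm fitted alone and 1752 without ZT6, and in high-fat offspring 3071 with the arm fitted alone, 1078 without libraries of low correlation and 4170 with weights. The cause was not tested in these cases, beyond the fewer libraries or times of some settings. For the 17 genes, 204 of 405 values with 1 library left out and 89 of 168 values under the other settings passed the threshold, and none was reversed.

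With the replicate number as a block, 21 genes were called, 16 of them among the 17. Same-numbered libraries of different groups had a median residual correlation of -0.01, with 19 of 84 pairs over 0.1. Pairs with other numbers had a median of -0.0045, with 33 of 168 over 0.1. The numbers thus showed no sign of a pairing, which does not exclude one. The block changed no other count by over 1.5 times. Depth limits low genes such as Vpreb3 and Abcb1a most.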
